A study of Drosophila melanogaster with 18 samples.

Results

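The transcripts described here come from 10 genes that drive entry into mitosis and exit from it in Drosophila. They are the Cdc25 phosphatase gene string (stg), the mitotic cyclin genes CycA, CycB and CycB3, the kinase genes polo, aurA and aurB, the spindle checkpoint gene Bub3, the anaphase activator gene fizzy (fzy) and the Cdk inhibitor gene dacapo (dap). They were chosen by symbol, with earlier results of these data known. All 10 were found among the 17373 genes of the count table, and all 10 were among the 8585 genes with enough counts to be tested. The RNA came from wing imaginal discs, the paired larval tissues from which the wings and most of the thorax develop, which were hand-dissected from wandering larvae of the third instar.

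The samples formed 3 groups of 3 numbered replicates. Discs called wts day 9 and wts day 5 here carried clones of wts149, an allele of the Hippo pathway kinase gene warts (wts), on an FRT82B chromosome, and were taken on day 9 or day 5. Control discs carried FRT82B clones with no wts allele named and were labelled day 5, although their description reads d5.d6, so an equal age is not established. In all 3 groups the clones were made with ubxflp, a recombinase driven by Ubx sequences, in a Minute background, in which the cells outside the clones grow slowly. A disc was therefore a mixture of clonal and other cells, and the clonal share is not given in the sources used here. Day 9 control discs are not analysed here, so age and genotype change together between wts day 9 and control discs. What separates 1 replicate from another is not stated, so each p-value refers only to how far these samples scatter.

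A cell enters mitosis when Cdk1, bound to its mitotic cyclins, loses the inhibitory phosphates that Wee1 and Myt1 place on it, and String is the phosphatase that removes them. Polo and the Aurora kinases then help build the spindle and attach chromosomes to it. The checkpoint, with Bub3 at the kinetochores, holds back Fizzy until attachment is complete, and Fizzy then directs the anaphase-promoting complex to destroy the cyclins. Dacapo acts earlier, as an inhibitor of Cyclin E with its kinase before S phase. In wing discs, stg transcription is known to set when cells leave G2, and Cyclin E is known to set when they enter S phase.

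The replicates held 14201662 to 22263073 counts, each the sum of an a and a b library. The wts transcript was at 274, 256 and 277 CPM (counts scaled to library size with TMM) in wts day 9 discs, at 213, 208 and 185 CPM in wts day 5 discs and at 99.8, 106 and 95.6 CPM in control discs. It does not check the genotype, since the lesion of wts149 is not given in the sources used here. Disc epithelium markers were present in every replicate, with 8 genes summing to 2036 to 2196 CPM in wts day 9, 1953 to 2068 CPM in wts day 5 and 2041 to 2138 CPM in control discs. Of these 8, 1 was higher and 2 lower on day 5 against control, and 2 were higher and 2 lower on day 9 (edgeR, adjusted p under 0.05). Among all genes tested, 9.64% were higher and 8.88% lower on day 5, and 15.3% and 14.3% on day 9. Other cell types were not equal between the groups. The 8 markers of myoblasts, the dividing muscle precursors beneath the epithelium, summed to 423 to 476 CPM in wts day 9, 316 to 351 CPM in wts day 5 and 472 to 486 CPM in control discs, with 4 of 8 lower on day 5. On day 9, 1 of these 8 was higher (Mef2) and 1 lower (kirre) against control. Between wts day 9 and wts day 5 discs 3 of them were higher, against 5.44% of all genes. The 8 differentiated muscle markers summed to 32.3 to 51.0, 88.4 to 167 and 199 to 935 CPM in the same order, with 6 of 8 lower on day 5 and 8 of 8 lower on day 9. The 6 tracheal markers summed to 3191 to 3760, 2716 to 3175 and 1818 to 2197 CPM, most of it from uif, verm and serp, but did not move together. Of them uif and serp were higher at both ages and verm on day 9, while btl was lower at both ages (log2 -0.89 and -0.53) and dys on day 5 (-1.23). trh did not pass at either age. Haemocyte markers (6 genes) summed to 653 to 886, 471 to 646 and 533 to 889 CPM, most of it from Ppn. The haemocyte genes Hml, NimC1, eater and srp were higher in wts day 9 than in wts day 5 discs (log2 1.65, 2.78, 3.02 and 2.06), and Hml was also higher in wts day 9 than in control discs (1.08). The sum of fat body markers (5 genes) was 104 to 208, 94.2 to 112 and 141 to 257 CPM, most of it from Cg25C, which did not pass. Against control, 2 of the 5 were lower on day 5, Fbp1 (log2 -7.23) and Fbp2 (-3.95), and 1 on day 9, Lsp1alpha (-3.53). The 6 salivary gland markers summed to 0.192 to 1.81 CPM in wts day 9, 0.466 to 0.572 CPM in wts day 5 and 3.19 to 5285 CPM in control discs, highest in control replicate 3. No marker was at 0 in all replicates of a group. The part of these cell types in the results below was not tested, and in whole discs fewer cells of a type and less RNA per cell cannot be told apart.

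The main finding among the 10 genes was a rise of stg without a called rise of the mitotic cyclins or kinases. The stg transcript (FBgn0003525; 3R, 29251826 to 29255800, minus strand, Ensembl release 115 annotation of BDGP6) was at 2079, 564 and 695 CPM in wts day 9 replicates 1, 2 and 3. It was at 359, 1087 and 854 CPM in wts day 5 replicates 1, 2 and 3, and at 230, 214 and 251 CPM in control replicates 1, 2 and 3. Each of the 6 wts replicates lay above each control, wts day 9 replicate 1 lay far above all others, and wts day 5 replicate 1 lay nearest to the controls. The fitted log2 fold change was 1.73 ± 0.50 (SE) for wts day 5 against control (adjusted p = 0.0410, edgeR quasi-likelihood test) and 2.26 ± 0.51 for wts day 9 against control (adjusted p = 0.00952). As fold changes these were 3.31 (95% interval 1.51 to 7.22) and 4.80 (2.17 to 10.6), and stg ranked 85th and 69th from the top of the 8585 genes.

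The rise on day 5 was less secure than that on day 9. It lost its call without wts day 5 replicate 2 (log2 1.40, adjusted p = 0.104), wts day 5 replicate 3 (1.66, adjusted p = 0.116), control replicate 1 (1.73, adjusted p = 0.104), control replicate 2 (1.67, adjusted p = 0.0914) or control replicate 3 (1.79, adjusted p = 0.0699), each left out in turn. The rise on day 9 passed in all 9 such fits (log2 1.45 to 2.60, adjusted p 0.00796 to 0.0352), and without wts day 9 replicate 1 the fold was 2.74 (log2 1.45), 1.75 times smaller.

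**Figure D1:**
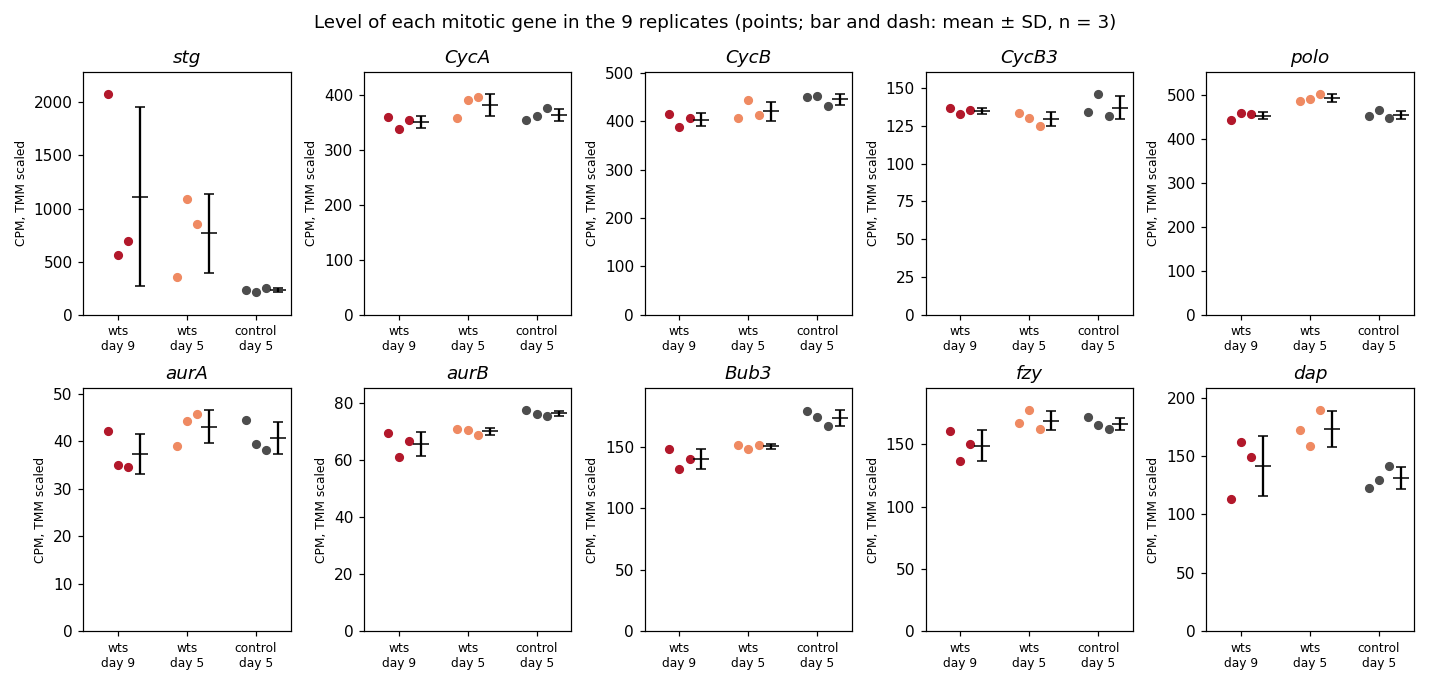
Level of each of the 10 genes in CPM scaled with TMM (vertical axes, from 0) in wts day 9, wts day 5 and control day 5 discs; points are replicates 1, 2 and 3, and the dash with its bar is the mean ± SD (n = 3). The stg panel shows all 6 wts points above the controls with a wide scatter, while the cyclin and polo panels are nearly level.

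The spread of stg between wts replicates was itself unlike that of the other 9 genes. Its SD was 75.4% of the mean in wts day 9 discs, 48.5% in wts day 5 discs and 8.08% in control discs. Among the 2176 genes that averaged 100 CPM or more, 2 had a larger value in wts day 9 discs, 5 in wts day 5 discs and 757 in control discs. The other 9 genes ran from 1.53% (CycB3) to 18.0% (dap) in wts day 9, from 1.32% (Bub3) to 8.91% (dap) in wts day 5 and from 1.33% (aurB) to 8.29% (aurA) in control discs. The medians over those 2176 genes were 5.44%, 5.91% and 6.40%. The stg values were alike in the libraries of a replicate: its a over b ratio of CPM lay between 0.954 and 1.04 in the 9 pairs, and in wts day 9 replicate 1 the a and b libraries gave 2016 and 2024 CPM (library size alone). The differences between wts replicates were therefore present in both of their libraries. Over all genes the a and b libraries of a replicate differed by little more than counting noise. Their likeness for stg thus does not tell what set the replicates apart. No test of the spread was made.

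**Figure D2:**
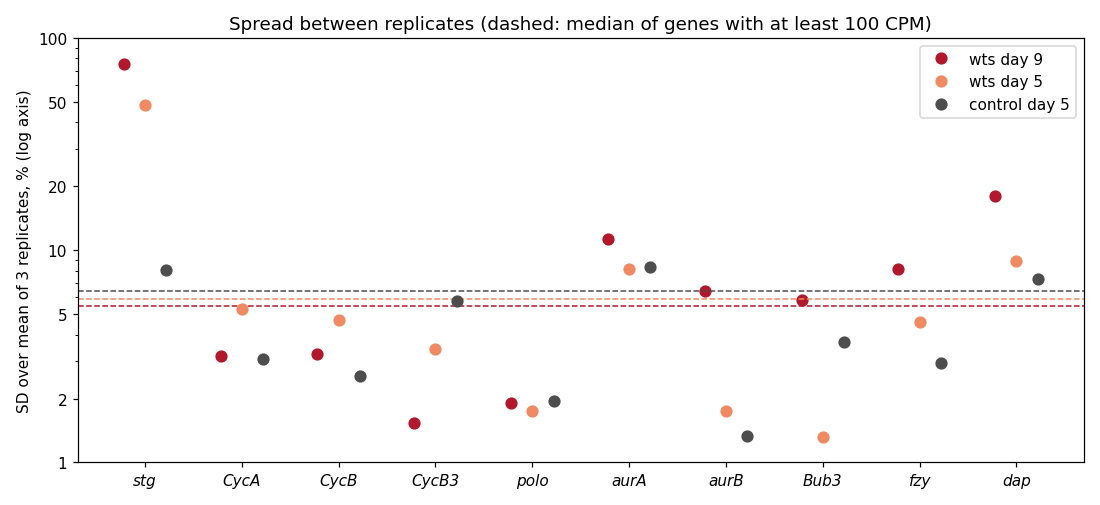
SD as a percent of the mean over 3 replicates (vertical, log axis) for each of the 10 genes in wts day 9, wts day 5 and control day 5 discs; dashed lines are the group medians of the 2176 genes with at least 100 CPM. The wts points of stg stand at 75.4% and 48.5%, and its control point, at 8.08%, lies near the medians.

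The genes beside stg did not share its rise. The nearest tested gene on the side of lower coordinates, SP1029, lies 1375 bases away and changed by -1.62 ± 0.29 on day 5 (adjusted p = 0.00540) and -1.09 ± 0.29 on day 9 (adjusted p = 0.0181), both on the log2 scale against control. The nearest on the other side, Cnx99A, lies 59454 bases away and changed by -0.53 ± 0.09 (adjusted p = 0.00403) and -0.48 ± 0.09 (adjusted p = 0.00422). stg lies 1.53 megabases from wts and Bub3 1.11 megabases from it, on the chromosome arm that carried the wts149 allele. CycB3 and aurA lie on the same arm, 5.92 and 18.8 megabases from wts, and did not pass in any comparison.

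The cyclins that String's target kinase needs stayed close to control. CycA (3L, 11826719 to 11833578), which acts in G2 and early mitosis, was at 359, 338 and 354 CPM in wts day 9, 358, 389 and 396 CPM in wts day 5 and 353, 361 and 375 CPM in control discs. The groups overlapped, and the log2 change was 0.07 (95% interval -0.07 to 0.21) on day 5 and -0.05 (-0.19 to 0.09) on day 9. CycB (2R, 22803521 to 22806948), another partner of Cdk1 in mitosis, was at 414, 388 and 406 CPM in wts day 9, 406, 443 and 412 CPM in wts day 5 and 450, 453 and 432 CPM in control discs. All wts day 9 values lay below the controls, with a log2 difference of -0.14 (-0.28 to -0.01) and an adjusted p of 0.104. On day 5 the CycB difference was -0.08 (-0.22 to 0.05). CycB3 (3R, 24867934 to 24870816), the cyclin that acts latest in mitosis, was at 137, 133 and 135 CPM in wts day 9, 134, 130 and 125 CPM in wts day 5 and 134, 146 and 131 CPM in control discs. Its log2 difference was -0.08 (-0.21 to 0.05) on day 5 and -0.02 (-0.15 to 0.10) on day 9. None of the 3 cyclins passed in any of the 3 comparisons (edgeR, DESeq2 or limma-voom), and only the CycB difference on day 9 had an unadjusted p under 0.05 (edgeR). By library size alone, CycB was lower on day 9 (log2 -0.19, adjusted p = 0.0400). The upper ends of all these intervals, at 0.21 or less, lay under the lower ends of the stg intervals, at 0.60 on day 5 and 1.12 on day 9.

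The ratio of stg to the geometric mean of the 3 cyclins put this in 1 number per replicate. It was 7.61, 2.17 and 2.58 in wts day 9, 1.33, 3.85 and 3.13 in wts day 5 and 0.831, 0.743 and 0.907 in control discs. Every wts ratio lay above every control ratio. The same ratio for fzy was 0.589, 0.526 and 0.559 in wts day 9, 0.621, 0.629 and 0.595 in wts day 5 and 0.620, 0.576 and 0.585 in control discs. These are ratios of CPM, not scaled for gene length, so only their differences between replicates can be read, and they were not tested.

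**Figure D3:**
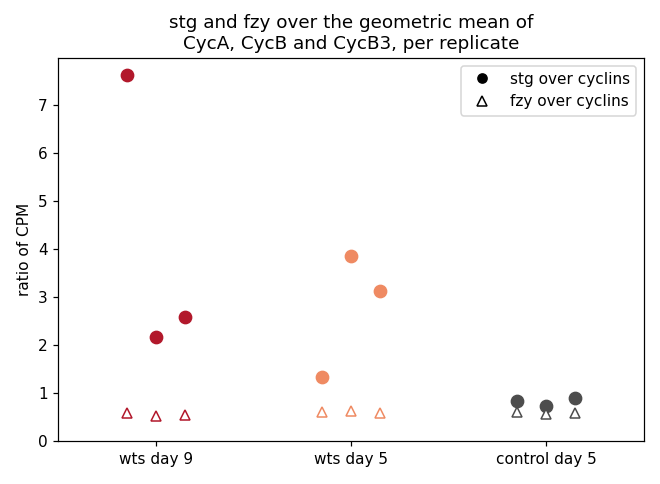
Ratio of stg (filled circles) and fzy (open triangles) to the geometric mean of CycA, CycB and CycB3 (vertical axis, ratio of CPM) in each replicate of wts day 9, wts day 5 and control day 5 discs. The stg ratio is 1.33 to 7.61 in wts replicates and 0.743 to 0.907 in controls, while the fzy ratio stays between 0.526 and 0.629.

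Among the kinases, polo and aurA did not pass. The Polo kinase gene polo (3L, 20309654 to 20313466), needed for centrosome maturation and the spindle, was at 443, 459 and 456 CPM in wts day 9, 485, 490 and 502 CPM in wts day 5 and 452, 465 and 447 CPM in control discs. All wts day 5 values lay above the controls, yet the log2 difference was only 0.11 (95% interval -0.01 to 0.24; adjusted p = 0.164). The day 9 difference of polo was -0.01 (-0.13 to 0.11). The Aurora A gene aurA (3R, 11963124 to 11964826), which acts at centrosomes, was at 42.1, 35.0 and 34.6 CPM in wts day 9, 39.1, 44.2 and 45.8 CPM in wts day 5 and 44.5, 39.4 and 38.1 CPM in control discs. Its groups overlapped, with log2 differences of 0.08 (-0.15 to 0.32) on day 5 and -0.13 (-0.36 to 0.11) on day 9. Of its exon bases, 9.70% also lie in exons of CG12213 on the other strand, which averaged 150 CPM in wts day 9, 109 CPM in wts day 5 and 99.99 CPM in control discs. Whether the counting used strand is not given, so reads of that stretch cannot be told apart.

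Aurora B was lower on day 9. aurB (2L, 10856797 to 10858094) encodes the kinase of the chromosomal passenger complex, which corrects faulty attachments and acts in cytokinesis. It was at 69.4, 61.1 and 66.7 CPM in wts day 9, 70.8, 70.6 and 68.6 CPM in wts day 5 and 77.4, 75.9 and 75.5 CPM in control discs. All 6 wts values lay below the 3 controls. The log2 change was -0.22 ± 0.06 on day 9 (adjusted p = 0.0228), and the day 5 difference of -0.12 ± 0.06 did not pass (adjusted p = 0.170). The day 9 call was lost without wts day 9 replicate 2 or 3, wts day 5 replicate 2 or 3, or control replicate 1 (log2 -0.21 to -0.15, adjusted p 0.0510 to 0.140).

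The checkpoint gene Bub3 fell at both ages. Bub3 (3R, 29674007 to 29675421), which brings the checkpoint proteins Bub1 and BubR1 to kinetochores, was at 148, 132 and 140 CPM in wts day 9, 152, 148 and 152 CPM in wts day 5 and 179, 175 and 167 CPM in control discs. All wts values lay below all control values. The log2 change was -0.21 ± 0.06 on day 5 (adjusted p = 0.0368) and -0.31 ± 0.06 on day 9 (adjusted p = 0.00410), so wts discs had 0.867 and 0.808 times the control level. On day 5 the call was lost in 6 of 9 leave-one-out fits, those without wts day 9 replicate 3, wts day 5 replicates 1, 2 and 3 or control replicates 1 and 2 (adjusted p 0.0733 to 0.119). It was also lost with every gene that had a count (adjusted p = 0.0738), the a libraries alone (adjusted p = 0.0584) and the b libraries alone (adjusted p = 0.0683). On day 9 it passed in all 9 (log2 -0.34 to -0.25). Exons of ppk19 on the other strand share 217 bases (15.9%) with Bub3, but ppk19 averaged 0.103 CPM in wts day 9 and 0.110 CPM in wts day 5 discs and had no count in control discs. Cap-D2, a condensin gene 230 bases from Bub3, was at -0.31 ± 0.07 on day 9 (adjusted p = 0.0116) and at -0.04 ± 0.07 on day 5 (adjusted p = 0.745). Obp99a, 1673 bases away on the other side, did not fall with Bub3. It was at 1.94 ± 0.25 on day 5 (adjusted p = 0.000985) and at 0.29 ± 0.25 on day 9 (adjusted p = 0.394).

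The anaphase activator fzy did not pass. fzy (2L, 16310956 to 16313097), the Drosophila Cdc20 gene, was at 161, 136 and 150 CPM in wts day 9, 167, 178 and 162 CPM in wts day 5 and 172, 166 and 162 CPM in control discs. wts day 9 values lay below both other groups. The log2 difference was -0.16 (95% interval -0.31 to -0.01) on day 9 against control (adjusted p = 0.107) and 0.02 (-0.13 to 0.17) on day 5. By library size alone it was lower on day 9 (-0.21, adjusted p = 0.0397) and at -0.03 on day 5. The cact gene on the other strand shares 62 exon bases (3.11%) with fzy.

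The Cdk inhibitor gene dap rose on day 5 at the edge of the threshold. dap (2R, 9712321 to 9716256), a member of the p21 and p27 family, was at 113, 162 and 149 CPM in wts day 9, 173, 158 and 189 CPM in wts day 5 and 123, 130 and 142 CPM in control discs. All wts day 5 values lay above the controls, whereas wts day 9 replicate 1, the replicate with the highest stg, had the lowest dap of all 9. The log2 change was 0.40 ± 0.12 on day 5, a fold of 1.32 (95% interval 1.09 to 1.60), with an adjusted p of 0.04999. On day 9 the difference was 0.11 (-0.17 to 0.39; adjusted p = 0.532). The day 5 call was lost under RLE size factors (adjusted p = 0.0520), library size alone (adjusted p = 0.0856), a stricter filter (adjusted p = 0.0513), limma-voom (adjusted p = 0.0573) and the b libraries alone (adjusted p = 0.0716). It was also lost in 6 of the 9 fits without 1 replicate, those without wts day 9 replicate 3, wts day 5 replicates 1, 2 and 3 or control replicates 1 and 2 (log2 0.35 to 0.48, adjusted p 0.0532 to 0.159).

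**Figure D4:**
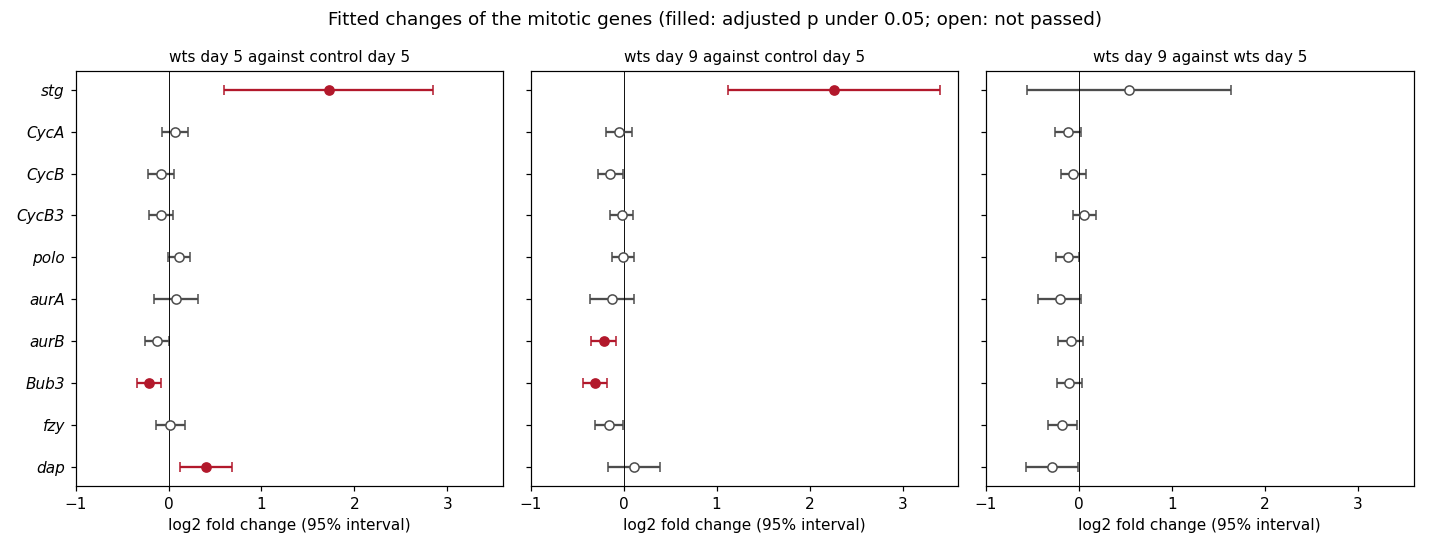
Fitted log2 fold changes (horizontal axes) with 95% intervals for the 10 genes in wts day 5 against control, wts day 9 against control and wts day 9 against wts day 5; filled red points passed at an adjusted p under 0.05 and open points did not. stg stands alone at 1.73 and 2.26, and the changes of the other 9 genes lie between -0.31 and 0.40.

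In all, 2 of the 10 genes rose (stg and dap), 1 fell (Bub3) and 7 did not pass on day 5, against 18.5% of all genes called. On day 9, 1 rose (stg), 2 fell (aurB and Bub3) and 7 did not pass, against 29.6% of all genes. With 10 genes, 3 calls at either age are too few to set these genes apart from the background. The median log2 fold change of the 10 was 0.04 on day 5 and -0.09 on day 9, beside -0.00 and -0.01 over all genes. On day 5 the wts replicates lay wholly above the controls for 3 of the 10 (19.3% of all genes) and wholly below for 2 (17.8%), 5 in all (37.1%). On day 9 they lay wholly above for 1 (22.1% of all genes) and wholly below for 4 (22.4%), again 5 in all (44.5%).

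The 2 ages of wts discs were compared directly as well. None of the 10 genes passed between wts day 9 and wts day 5 (edgeR; 3 at an unadjusted p under 0.05, polo, fzy and dap, and none by DESeq2 or limma-voom), where 8.34% of all genes were called. stg differed by 0.54 ± 0.49 (log2, adjusted p = 0.520), and by -0.28 without wts day 9 replicate 1. fzy was at -0.18 ± 0.07 (adjusted p = 0.128), dap at -0.29 ± 0.12 (adjusted p = 0.167) and polo at -0.12 ± 0.05 (adjusted p = 0.186). The replicates of polo, Bub3 and fzy were all lower in wts day 9 than in wts day 5 discs, 3 of 10 against 17.3% of all genes, and no member had all its wts day 9 replicates higher, against 18.2%. In either direction 35.5% of all genes had no overlap between these groups.

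Levels of different genes were set side by side per kilobase of annotated exon. In wts day 9 discs stg was highest at 363 ± 274 CPM per kb (SD, n = 3), then polo at 152 ± 2.91 and CycB at 132 ± 4.27. In wts day 5 discs stg had the highest mean at 250 ± 121 CPM per kb, but its lowest replicate, at 117 CPM per kb, lay below every replicate of polo, CycB and CycA. In control discs polo led at 153 ± 2.98 CPM per kb, followed by CycB at 146 ± 3.75, Bub3 at 127 ± 4.69, CycA at 124 ± 3.82, fzy at 83.5 ± 2.46 and stg at 75.7 ± 6.11. Below these came aurB at 64.5 ± 0.857, dap at 51.9 ± 3.78, CycB3 at 47.5 ± 2.74 and aurA at 25.8 ± 2.14 CPM per kb. Control replicates of Bub3 and CycA overlapped, as did those of fzy and stg and those of dap and CycB3, so these neighbours cannot be ranked. aurA was lowest in all 3 groups.

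The genes whose levels followed stg most closely over the 9 replicates, among 6233 genes averaging 10 CPM or more, were CG31549 (Pearson r = 0.931), Ac3 (0.928) and Tep2 (0.921). Ac3 ran from 35.3 to 66.2 CPM in wts day 9, 31.0 to 41.3 CPM in wts day 5 and 19.0 to 27.1 CPM in control discs. Tep2 ran from 185 to 265, 174 to 221 and 88.1 to 108 CPM in the same groups. The closest to CycB were CG10576 (0.990), CG32409 (0.987) and CG9246 (0.983), and the closest to dap were CG12567 (0.953), Ggamma1 (0.949) and CG13014 (0.947). These are descriptions over 9 replicates that share their groups and libraries, and none of the 3 genes named for stg is among the other members.

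The wider machinery of mitosis was followed in 10 lists with 131 of 137 genes tested. On day 5, 15 of the 131 rose, 3 fell and 113 did not pass, so 11.5% rose and 2.29% fell, against 9.64% and 8.88% of all genes. On day 9, 14 rose and 13 fell, 10.7% and 9.92%, against 15.3% and 14.3% of all genes. Between wts day 9 and wts day 5 discs 3 rose and 8 fell, 2.29% and 6.11%, against 5.44% and 2.90% of all genes. No list was tested as a set. Among the called genes of these lists against control, the greatest rise was 0.67 and the greatest fall -0.54 on the log2 scale, both smaller than the change of stg. The fold changes of the called genes were refitted in 19 other ways. On day 5, 6 of the 18 calls held in all 19 fits, those of CycE, lok, cana, Cap-H2, sub and dia. On day 9, 14 of the 27 calls did, those of Cdk1, CycE, grp, shtd, Nuf2, cana, san, Cap-D2, Cap-H2, nod, ana1, zip, dia and nuf. Between wts day 9 and wts day 5 discs 0 of the 11 calls held in all 19 fits, though each held in at least 10. Every other call was lost without at least 1 of the replicates, with its direction kept.

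Of 19 regulators of the cyclins and of Cdk1, 2 rose and 1 fell on day 5, and 2 rose and 3 fell on day 9. Over all genes, 9.64% rose and 8.88% fell on day 5, and 15.3% rose and 14.3% fell on day 9. CycE, the cyclin of S phase entry that Dacapo inhibits, ran from 134 to 155 CPM in wts day 9, 123 to 135 CPM in wts day 5 and 92.7 to 97.5 CPM in control discs, and rose by 0.42 ± 0.07 on day 5 (adjusted p = 0.00260) and 0.60 ± 0.07 on day 9 (adjusted p = 0.000242). Cdk1, the kinase that String activates, ran from 113 to 120 CPM in wts day 9, 130 to 152 CPM in wts day 5 and 144 to 161 CPM in control discs. It fell on day 9, by 0.40 ± 0.07 against control (adjusted p = 0.00301) and by 0.31 ± 0.07 against wts day 5 (adjusted p = 0.0298), while its day 5 difference of -0.09 ± 0.07 did not pass. Its small partner Cks30A fell on day 9 as well (-0.33 ± 0.09 against control and -0.41 ± 0.09 against wts day 5). The checkpoint kinase genes moved in opposite directions at both ages, with grp (Chk1) at -0.38 ± 0.08 and -0.45 ± 0.08 and lok (Chk2) at 0.31 ± 0.06 and 0.25 ± 0.06 on days 5 and 9. The kinases that oppose String did not pass, with Wee1 at -0.01 ± 0.07 and -0.09 ± 0.07 and Myt1 at -0.12 ± 0.10 and -0.23 ± 0.10. twe, the second Cdc25 gene of Drosophila, was at 6.73 to 8.58 CPM in wts day 9, 9.83 to 11.8 CPM in wts day 5 and 9.13 to 10.7 CPM in control discs and did not pass in any comparison (log2 0.07 ± 0.14 on day 5 and -0.35 ± 0.14 on day 9 against control). trbl, whose product is known to promote degradation of String, was at -0.08 ± 0.11 and -0.04 ± 0.11 and did not pass.

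The anaphase-promoting complex and its activators had 2 of 13 genes down on day 5 and 3 of 13 down on day 9. Over all genes, 8.88% and 14.3% were down. With 13 genes, these calls are too few to set the list apart from the background. The subunit gene shtd (Apc1) fell by 0.23 ± 0.05 and 0.30 ± 0.05 (adjusted p = 0.0174 and 0.00289), and Cdc16 fell by 0.27 ± 0.07 on day 9. cort, known as a germline relative of fzy, was at 6.73 to 7.81 CPM in wts day 9, 7.30 to 7.90 CPM in wts day 5 and 9.33 to 11.6 CPM in control discs and fell by 0.47 ± 0.13 and 0.54 ± 0.13, with the day 5 call held in 8 of 19 other fits. fzr, the activator of late mitosis and G1, listed in the table under the older symbol rap, did not pass (-0.16 ± 0.11 and -0.04 ± 0.11).

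Of 13 spindle checkpoint and Ndc80 genes, 1 rose on day 5, the kinetochore gene rod (0.23 ± 0.07, adjusted p = 0.0492), whose call held in 2 of 19 other fits, and 2 fell on day 9, Nuf2 (-0.43 ± 0.09, adjusted p = 0.00528) and Mad1 (-0.19 ± 0.06, adjusted p = 0.0310), which held in 8 of 19. Over all genes, 9.64% rose on day 5 and 14.3% fell on day 9. Of 9 centromere and kinetochore genes, only cana, a kinesin related to CENP-E, passed against control, at 0.39 ± 0.08 on day 5 and 0.40 ± 0.08 on day 9. At these ages 9.64% and 15.3% of all genes rose, so 1 call of 9 does not set this list apart. Of 3 tested chromosome passenger genes other than aurB, 1 was lower in wts day 9 than in wts day 5 discs, where 2.90% of all genes fell. This was Det (Survivin; -0.32 ± 0.08, adjusted p = 0.0390), whose call held in 10 of 19 other fits.

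On day 5, 3 of 13 cohesin and separase genes rose, eco (0.30 ± 0.06), vtd (0.31 ± 0.09) and SMC1 (0.29 ± 0.09), as did 2 of 7 condensin genes, Cap-H2 (0.34 ± 0.06) and glu (0.25 ± 0.06). The share of all genes that rose on day 5 was 9.64%. On day 9, eco (0.26 ± 0.06) and Cap-H2 (0.65 ± 0.06, adjusted p = 7.42e-05) rose, while san (-0.51 ± 0.08), needed for sister chromatid cohesion, and Cap-D2 fell. Cap-H2, a subunit of condensin II, ran from 111 to 117 CPM in wts day 9, 89.0 to 97.7 CPM in wts day 5 and 71.1 to 76.8 CPM in control discs, and it was the one condensin gene called higher in wts day 9 than in wts day 5 discs (0.31 ± 0.06, adjusted p = 0.0158).

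Of 24 spindle motor and assembly genes, 2 rose on day 5, the kinesin genes sub (0.44 ± 0.08, adjusted p = 0.00466) and Klp61F (0.19 ± 0.05, adjusted p = 0.0308). On day 9, 2 fell against control, the kinesin gene nod (-0.30 ± 0.07) and the augmin gene wac (-0.33 ± 0.09). The shares of all genes were 9.64% that rose on day 5 and 14.3% that fell on day 9. sub ran from 62.0 to 67.7 CPM in wts day 9, 79.1 to 91.7 CPM in wts day 5 and 58.2 to 66.0 CPM in control discs, so it was high in wts day 5 discs and its wts day 9 and control ranges overlapped. Against wts day 5, 4 of the 24 fell on day 9, among them sub (-0.38 ± 0.08), Klp61F (-0.23 ± 0.05) and asp (-0.29 ± 0.07), where 2.90% of all genes fell.

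Of 17 centrosome genes, 1 rose on day 5, when 9.64% of all genes rose. It was Sas-6, which builds the centriole cartwheel, and it rose at both ages (0.67 ± 0.15 and 0.56 ± 0.15). On day 9, 4 rose and 1 fell, with the centriole genes ana1 (0.51 ± 0.08) and Cep135 (0.29 ± 0.08) among the rises. Over all genes, 15.3% rose and 14.3% fell on day 9. Of 13 tested cytokinesis genes of 15 listed, 3 rose on day 5 (1 by library size alone) and 5 on day 9. The shares of all genes that rose were 9.64% and 15.3%. The septin genes Sep1 and Sep2 were not matched to a row of the table and are not analysed here, and rows with the names 1-Sep and 2-Sep were not used. The formin gene dia rose at both ages (0.47 ± 0.06, adjusted p = 0.00106, and 0.34 ± 0.06, adjusted p = 0.00307), as did Rho1 (0.24 ± 0.06 and 0.19 ± 0.06). tum (0.28 ± 0.09) rose on day 5, a call that held in 6 of 19 other fits, and the myosin heavy chain gene zip (0.38 ± 0.07) and nuf (0.28 ± 0.06) rose on day 9. dia, Rho1 and zip also act in the cell cortex outside division. Cdep was higher in wts day 9 than in wts day 5 discs (0.27 ± 0.05, adjusted p = 0.0185).

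**Figure D5:**
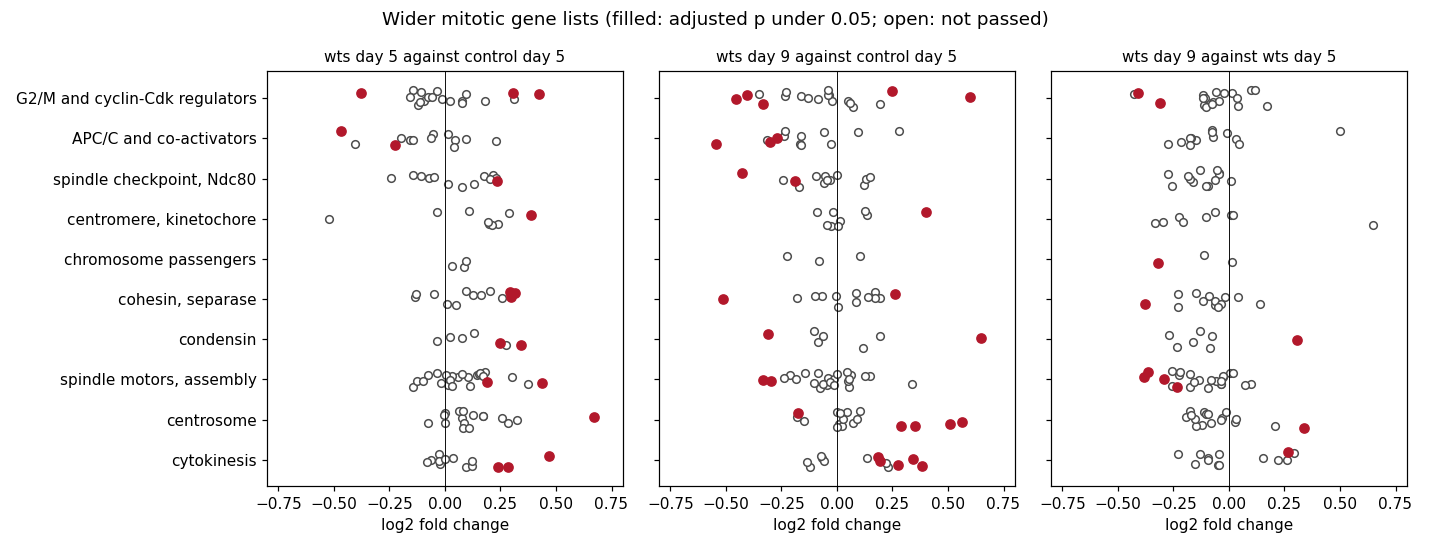
Log2 fold changes (horizontal axes) of the genes of 10 wider mitotic lists (rows, 1 point a gene, shifted at random within its row) in the 3 comparisons; filled red points passed at an adjusted p under 0.05 and open points did not. Against control the filled points lie between -0.54 and 0.67, short of the stg changes of 1.73 and 2.26.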

How the data were processed

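Total RNA of 18 libraries was analysed, 6 a group. The values are whole read counts per gene as deposited, made with HTSeq per the submitters' processing notes, with no normalization. The sources used here do not give the aligner, build, annotation or use of strand. Libraries a and b with the same number were added up as 1 replicate (n = 3 a group), since they differed by little more than counting noise (chi-square over its degrees of freedom 0.994 to 1.06, against 11.1 to 58.9 between replicates of a group, over genes with at least 10 counts).

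Genes were kept by filterByExpr (minimum count 10), which left 8585, and the 3 groups were fitted together with edgeR 4.0.16 (TMM scaling, factors 0.972 to 1.04; quasi-likelihood F-test) in R 4.3.3. A gene was called, and is said to rise or fall, when its p, adjusted across the tested genes by Benjamini-Hochberg, was under 0.05. SEs and 95% intervals come from the same fit. Values after ± are SEs beside fold changes and SDs beside levels. limma 3.58.1 (voom) and DESeq2 1.42.0 were alternatives. Python 3.11.15 and matplotlib 3.10.9 made the plots.

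Positions, exon lengths and overlaps come from the Ensembl release 115 annotation of BDGP6, which may differ from the one the authors used. Older symbols were matched by hand. All 3 groups carry the same replicate numbers in the labels, but deviations of same-numbered replicates from their group means correlated at -0.167 to 0.244, so they were not treated as pairs. The members and lists were chosen with earlier results of these data known. All 10 members are named, with up to 3 called genes of smallest adjusted p from each list and comparison, any cyclin and Cdk1 regulator, and the 3 genes most like stg, CycB and dap. SP1029, Cnx99A, Cap-D2, Obp99a and genes with overlapping exons were named for their position.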

Additional observations from a re-analysis of the deposited data

How the results depend on the processing

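Calls and fold changes of the members and counts of the wider lists were recomputed under 10 other settings and without each of the 9 replicates in turn, as were, added after seeing the data, fold changes of the called list genes. On day 5 the number of members called was 3. It was 1 with the replicate block and 1 with the b libraries alone, and 0 to 3 without 1 replicate. The number higher on day 5 was 1, in place of 2, under RLE size factors, library size alone, the stricter filter, limma-voom, the replicate block and the b libraries alone, and 0 to 2 without 1 replicate. The number lower was 0, in place of 1, with every gene that had a count, the replicate block, the a libraries alone and the b libraries alone, and 0 to 1 without 1 replicate. Under the replicate block stg was at 1.77 (adjusted p = 0.0666) and Bub3 at -0.21 (adjusted p = 0.0543) on day 5, and 4 of 9 replicates correlated best with their own number.

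On day 9, library size alone called 5 members in place of 3 and 4 lower in place of 2, and it moved the median of all genes to -0.07 in place of -0.01. With every gene that had a count, 1 was lower, as with only the 2 groups compared (aurB at adjusted p 0.0695 and 0.0547), and 1 to 2 were lower without 1 replicate. stg was higher and Bub3 lower on day 9 under every setting run, and no setting called a member between wts day 9 and wts day 5 discs.

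The signs that turned belonged to differences that did not pass. fzy on day 5 was -0.0301 by library size alone and -0.00205 to 0.0675 without 1 replicate. polo on day 9 was 0.00951 with every gene that had a count and -0.0209 to 0.0201 without 1 replicate, where CycB3 ran from -0.0555 to 0.0187. stg between wts day 9 and wts day 5 discs ran from -0.28 to 0.88. The cause of these changes was not tested. Of the wider lists' counts of genes higher or lower, 975 of 1140 stayed within 1.5 times the reported count and 165 did not. aurA had the fewest counts of the members, 630 to 950 a replicate.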
